A study of Homo sapiens with 27 samples.

Results

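The genes described here are 10 transcription factors known for setting up and keeping epithelial identity. They are the grainyhead-like factors GRHL1, GRHL2 and GRHL3, the OVO-like zinc finger factors OVOL1 and OVOL2, the ETS-family factors EHF and ELF3, the Krüppel-like factors KLF4 and KLF5, and TP63, a relative of p53. They were selected by symbol, with earlier results of these data known, and all 10 were found among the 57165 genes of the count table.

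Epithelial and mesenchymal states are held by factors that oppose each other. ZEB1 binds E-box motifs and represses epithelial genes, while grainyhead-like and OVOL factors act against it, the former by opening enhancers of adhesion and junction genes and the latter by repressing mesenchymal regulators. EHF and ELF3 are ETS factors largely restricted to epithelia, KLF4 and KLF5 act in differentiating and proliferating squamous and glandular epithelia, and TP63 is the defining factor of the basal layer of stratified and mammary epithelium.

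RNA was sequenced from SUM159 and MDA-MB-231, both triple negative breast cancer cell lines of mesenchymal character. Wild type cells were untransduced. All other groups carried a lentiviral vector with dCas9-KRAB, a Cas9 without nuclease activity fused to a repressor domain, and were selected with puromycin. In the No gRNA groups it had no guide, and in the targeted groups it had guides to the ZEB1 promoter, either gRNA 4 or All gRNA, the pool of 4 guides. Each of the 9 groups held 3 libraries, which the methods call individual clones. For SUM159 these were wild type in run 1, wild type in run 2, No gRNA, gRNA 4 and All gRNA. For MDA-MB-231 they were wild type, No gRNA and both targeted groups. The labels of the 6 targeted MDA-MB-231 libraries contradict each other. In set 1 the title says gRNA 4 and the column says All gRNA, in set 2 it is the reverse, and neither set was assigned to a guide condition. All transduced SUM159 cells were sequenced in run 1 and all MDA-MB-231 cells in run 2, so line and run cannot be told apart between them. SUM159 wild type was sequenced in both runs, and 6.35% of the genes tested differed between those runs by TREAT, the limma test of whether a change exceeds a log2 fold change of 1, so the wild type of run 1 served as the SUM159 wild type unless run 2 is named.

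Libraries held between 15461200 and 21473757 estimated counts, and no library repeated another. Levels are given as CPM, counts per 1000000 of the TMM-scaled library total. ZEB1 itself stood at 70.7 to 77.3 CPM with No gRNA in SUM159, at 2.56 to 4.56 with gRNA 4 and at 0.375 to 1.02 in the pooled-guide group. MDA-MB-231 cells held 104 to 122 CPM of it with No gRNA, 4.75 to 5.74 in set 1 and 3.7 to 5.43 in set 2. The mesenchymal markers VIM, FN1, CD44 and AXL were at 105 to 4343 CPM in every library. ESR1 and PGR averaged at most 0.32 CPM in any group, while CLDN4 averaged 66.2 to 133.8 CPM over the MDA-MB-231 groups, so this claudin was not low in that line. Together with ERBB2, CLDN3 and CLDN7, these 6 receptor and claudin genes ranged from 0 to 144 CPM in single libraries. Their sum per library was 38.5 to 291 CPM, so the 6 were not low as a set. Of 8 markers of other cell types, 2 never exceeded 3 counts, CD3E among them, and CD68 made up most of the 8 markers' summed 9.5 to 177 CPM.

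Promoter windows from RefSeq (GRCh38.p14, 250 bases before to 50 after a transcription start) were at hand for 7 of the 10 genes, 10 windows in all. OVOL1, OVOL2 and GRHL2 were not in the table. CACCTG, the E-box bound by ZEB factors, was searched on both strands and occurred in 2 of the 10 windows, the first of GRHL3 (2 matches) and that of ELF3 (1 match), a share close to the 20.6% of all 35116 windows. The grainyhead-like motif AACNNGTT, held by 3.52% of all windows, and the OVOL motif CCGTTA, held by 3.07%, had 0 matches in these 10 windows. Sequence before the start is shown for both genes with the E-box, in capitals, and for EHF, the member called in both targeted SUM159 groups, whose windows held no match. The second GRHL3 match lies 10 bases past the start and is not printed. A match is only a run of letters and not a binding site. The GRHL3 window is chr1:24319107-24319356, plus strand, with its E-box starting at base -21, and GRHL3-AS1 spans it on the other strand. The ELF3 stretch is chr1:202010455-202010484, plus strand, with its E-box starting at base -120. The EHF window is chr11:34624007-34624256, plus strand.
GRHL3: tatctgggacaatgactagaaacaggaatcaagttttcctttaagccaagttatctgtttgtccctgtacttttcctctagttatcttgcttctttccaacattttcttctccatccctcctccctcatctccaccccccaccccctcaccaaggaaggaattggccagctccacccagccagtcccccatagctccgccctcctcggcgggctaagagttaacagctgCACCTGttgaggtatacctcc
ELF3: gaatatgcaaatCACCTGgggccaggagcc
EHF: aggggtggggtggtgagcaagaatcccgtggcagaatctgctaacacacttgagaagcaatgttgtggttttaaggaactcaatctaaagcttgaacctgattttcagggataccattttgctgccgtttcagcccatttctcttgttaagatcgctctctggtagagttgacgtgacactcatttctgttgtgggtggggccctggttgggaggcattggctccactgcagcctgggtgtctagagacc

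Across the 9 groups the members fell into 3 bands. KLF4 and KLF5 were read at 24.9 to 146 CPM in all 27 libraries. EHF, ELF3, GRHL1, GRHL3 and TP63 ranged from 0 or near 0 to at most 266 CPM with line and condition. OVOL1, OVOL2 and GRHL2 did not exceed 3 counts in any library of most groups, a level treated as the floor. GRHL2 never left it, with at most 2.59 counts in any of the 27 libraries, which is below what this depth can resolve and does not show that the gene is silent.

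To compare levels between genes, CPM was divided by the length of the canonical transcript (GENCODE v44). Per kb, TP63 led in SUM159 wild type of run 1 at 52.2, ahead of KLF5 at 38.8 and KLF4 at 26.1. The same order held per kb in No gRNA, gRNA 4 and All gRNA SUM159 cells. In SUM159 wild type of run 2 it was KLF5 at 22.2, KLF4 at 15.3 and TP63 at 7.09. In MDA-MB-231 the order per kb was KLF4, KLF5 and EHF in wild type, No gRNA and set 1, with KLF4 at 47.7, KLF5 at 24.9 and EHF at 15.9 in set 1, while in set 2 KLF5 at 21.4 came before KLF4 at 14.9. The longest transcript gave the same leading 3 genes in the same order in all 9 groups, but the union of exons gave another order in SUM159 wild type of run 1, No gRNA and All gRNA.

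**Figure D1:**
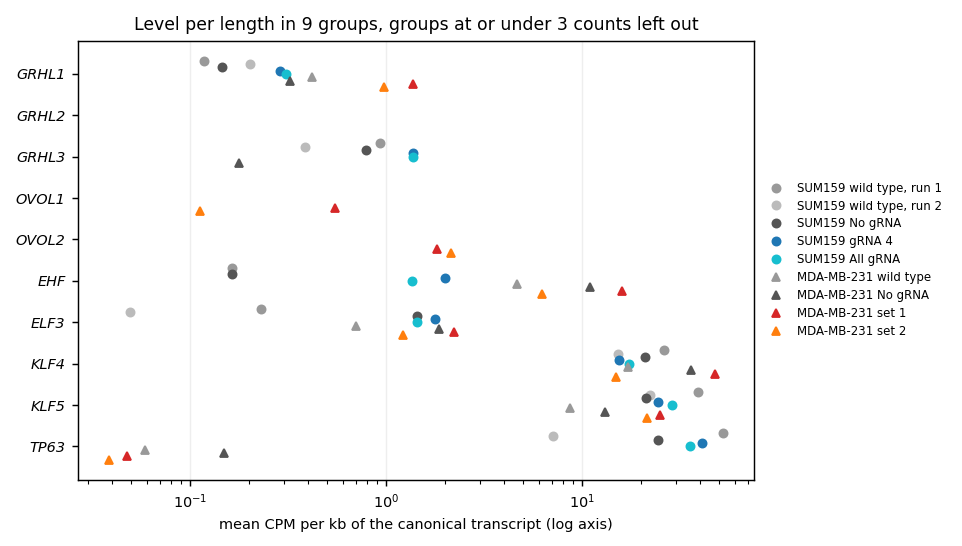
Level of each transcription factor per group, in CPM per kb of canonical transcript on a log axis, with 1 mark per group mean of 3 libraries and groups at the floor left out. TP63, KLF5 and KLF4 lead in SUM159 run 1 groups, and KLF4, KLF5 and EHF in MDA-MB-231, where TP63 averages at most 0.148 per kb.

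The first comparison asked how these factors stood in SUM159 cells once ZEB1 was repressed. EHF (ENSG00000135373, chromosome 11, 34621093 to 34663288, plus strand) rose most among the 7 members tested. It stood at 1.47, 0.547 and 0.612 CPM in the 3 No gRNA libraries, at 11, 10.2 and 11.1 with gRNA 4 and at 7.3, 6.14 and 8.35 with All gRNA. Every targeted library was above every control library, and the means of 10.8 ± 0.496 and 7.26 ± 1.11 CPM (SD, n = 3) were 12.3 and 8.28 times the No gRNA mean of 0.878 ± 0.517, or 18.6 and 12.5 times without No gRNA replicate 1, the highest control. The main test was TREAT, with p-values adjusted over all genes of the fit. EHF passed it with gRNA 4 (log2 fold change 3.70, SE 0.31, adjusted p = 6.42e-04) and with All gRNA (3.14, SE 0.315, adjusted p = 0.00589). The All gRNA call was lost without No gRNA replicate 2 (2.89, adjusted p = 0.0573), without No gRNA replicate 3 (2.95, adjusted p = 0.0759) and when only the 6 libraries compared were fitted (adjusted p = 0.0636), and no left-out library ended the gRNA 4 call. In bulk RNA, more cells with the transcript and more transcript per cell cannot be told apart, here and in all results that follow.

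EHF was the single member called by TREAT in either comparison, 1 of 7 tested in each, where 0.396% of all genes tested were called with All gRNA and 0.39% with gRNA 4. In each comparison 4 members lay wholly above the controls and 1 wholly below, where 29.5% of all genes did not overlap. The 3 members not tested were GRHL2, OVOL1 and OVOL2, which the filter on low counts removed in SUM159. OVOL1 was at 0 counts in all 15 SUM159 libraries. OVOL2 was at 0 counts in wild type and No gRNA SUM159 cells, at 0.901 to 1.82 with gRNA 4 and at 0.666 to 0.907 with All gRNA. Counts this low cannot be resolved at this depth. Against a change of 0, limma's moderated test from the same fit called 3 of 7 higher and 0 lower with All gRNA, where 5.93% of all genes were higher and 4.89% lower. With gRNA 4 it called 2 higher and 1 lower, where 6.11% were higher and 4.91% lower. All gRNA and gRNA 4 share their 3 control libraries, so their values stand side by side and are not separate evidence.

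TP63 (ENSG00000073282, chromosome 3, 189631389 to 189897276, plus strand) was higher in both. Its No gRNA libraries held 121, 117 and 121 CPM, the gRNA 4 libraries 200, 207 and 200, and the All gRNA libraries 187, 170 and 169. The groups did not overlap and the spread within each was small. The log2 fold change was 0.75 with gRNA 4 (SE 0.0524, moderated adjusted p = 2.84e-06) and 0.55 with All gRNA (SE 0.0529, moderated adjusted p = 4.44e-05), below the threshold of TREAT in both. KLF5 (ENSG00000102554, chromosome 13, 73054976 to 73077541, plus strand) held 77.5, 64.4 and 70.2 CPM with No gRNA, 88, 77.8 and 80 with gRNA 4 and 108, 96 and 83.1 with All gRNA. It rose with All gRNA (log2 fold change 0.43, SE 0.101, moderated adjusted p = 0.0179) and did not pass with gRNA 4 (0.20, moderated adjusted p = 0.248). KLF4 (ENSG00000136826, chromosome 9, 107484852 to 107490482, minus strand) went the other way, from 57, 62.7 and 65.1 CPM to 42.6, 49 and 44.6 with gRNA 4 and 55.9, 51.6 and 45.6 with All gRNA. The fall passed the moderated test with gRNA 4 (log2 fold change -0.45, moderated adjusted p = 0.0053) and not with All gRNA (-0.28, moderated adjusted p = 0.058).

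These small changes depend on the control. Wild type SUM159 cells of run 1 held 251, 266 and 258 CPM of TP63 and 132, 133 and 125 CPM of KLF5, more than any transduced group. Against wild type the log2 fold change of TP63 was -0.37 with gRNA 4 and -0.57 with All gRNA, and that of KLF5 was -0.68 and -0.46, so both turned direction. EHF did not, at 1.14, 0.846 and 0.664 CPM in wild type, and its rise against wild type passed TREAT with gRNA 4 (log2 fold change 3.58, adjusted p = 1.21e-04) and All gRNA (3.02, adjusted p = 0.0012). It was 1 of 2 members called in each, ELF3 being the other, where 2.46% and 2.3% of all genes were called.

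GRHL1, GRHL3 and ELF3 did not pass either test against No gRNA. GRHL3 (ENSG00000158055, chromosome 1, 24199558 to 24364482, plus strand), a grainyhead-like factor of the skin barrier, held 3.96, 1.24 and 1.49 CPM with No gRNA, 4.59, 3.82 and 3.23 with gRNA 4 and 4.8, 3.98 and 2.85 with All gRNA. No gRNA replicate 1 stood within the targeted range, and the other two stood below it. The log2 fold change was 0.96 (moderated adjusted p = 0.126) and 0.94 (moderated adjusted p = 0.131). GRHL1 (ENSG00000134317, chromosome 2, 9951693 to 10002277, plus strand), a regulator of desmosomal genes, lay between 0.377 and 1.66 CPM in the 9 libraries, with 0.89 (moderated adjusted p = 0.245) and 1.07 (moderated adjusted p = 0.154). ELF3 (ENSG00000163435, chromosome 1, 202007945 to 202017183, plus strand), a driver of epithelial differentiation, held 4.93, 4.57 and 3.81 CPM with No gRNA, 5.57, 5.63 and 5.39 with gRNA 4 and 2.53, 4.95 and 5.89 in the All gRNA libraries. The log2 fold changes were 0.32 (moderated adjusted p = 0.485) and, in the same order, -0.07 (moderated adjusted p = 0.911).

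Between the targeted SUM159 groups no member passed either test, and 0 of 7 did at an unadjusted TREAT p under 0.05, by edgeR or by DESeq2. TREAT called 0% and the moderated test 0.944% of all genes. EHF was lower with All gRNA than with gRNA 4 by a log2 fold change of -0.57 (95% interval -0.94 to -0.20, moderated adjusted p = 0.201). For TP63 the log2 fold change was -0.20 (moderated adjusted p = 0.0951).

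**Figure D2:**
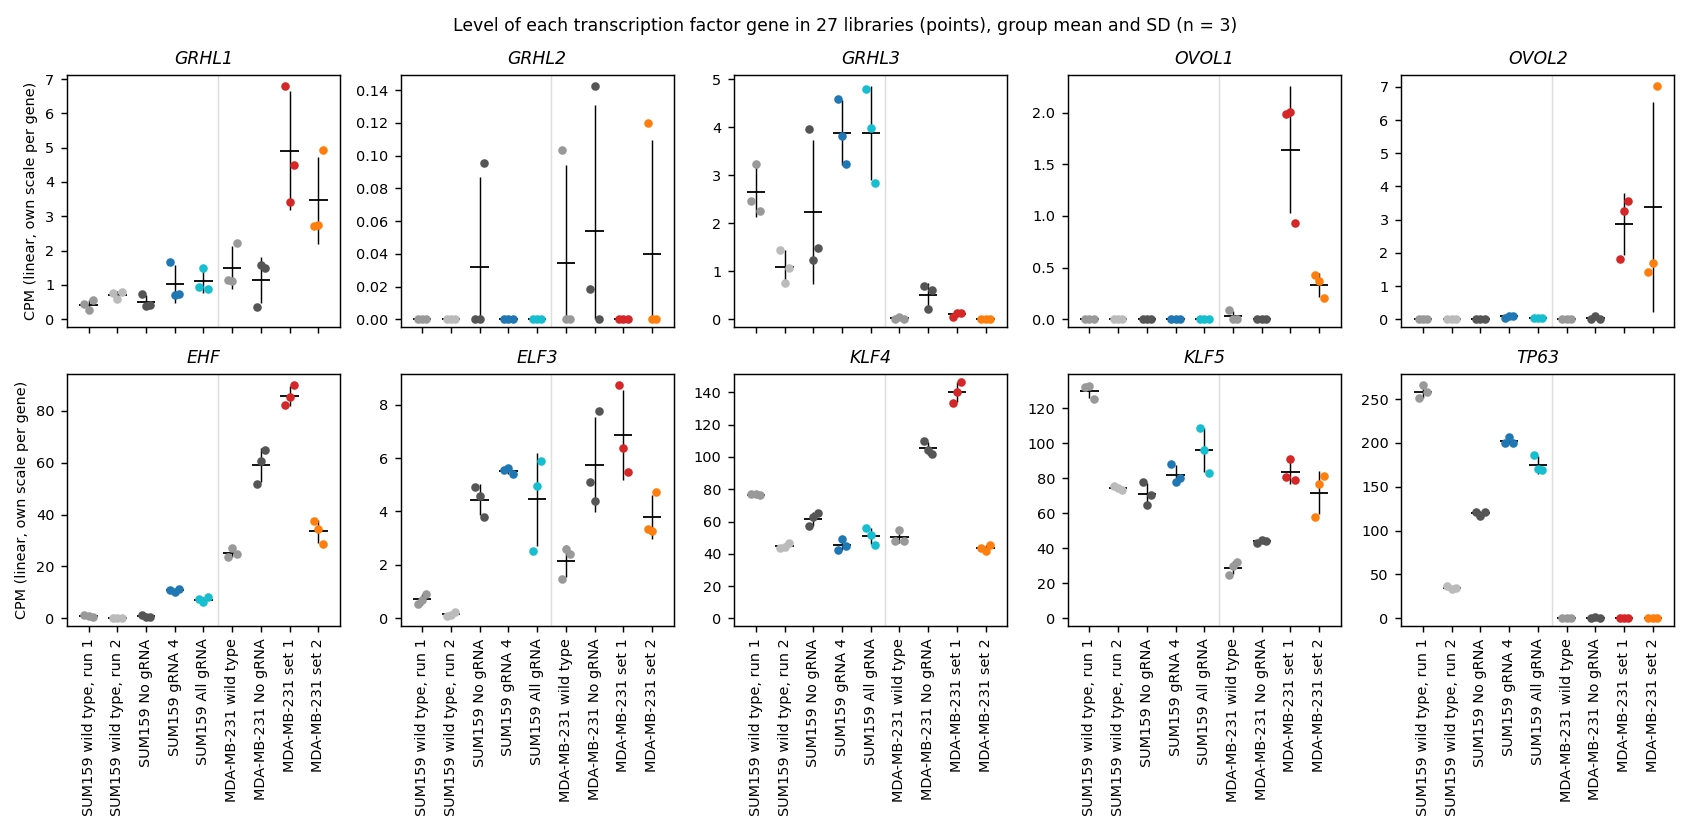
CPM of each transcription factor in each of the 27 libraries (points), with the mean and SD of each group of 3, and each panel on its own axis from 0, where SD bars stop. The 6 targeted SUM159 libraries hold 6.14 to 11.1 CPM of EHF and the No gRNA libraries at most 1.47, and OVOL1 and OVOL2 leave the floor only in the 6 targeted MDA-MB-231 libraries.

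In MDA-MB-231 cells the OVOL factors, which stayed at the floor in SUM159, were read in both targeted sets. OVOL1 (ENSG00000172818, chromosome 11, 65787063 to 65797214, plus strand), a repressor of mesenchymal regulators, was at 0 counts in all 3 No gRNA libraries and at 1.99, 2.01 and 0.934 CPM in set 1, which is 32.4, 33.8 and 14.6 counts. In set 2 it stood at 0.431, 0.37 and 0.205 CPM, or 7.37, 6.46 and 3.23 counts. Taken against the floor of 3 counts per library, OVOL1 was at least 9.83-fold higher in set 1 and at least 2.01-fold higher in set 2. It passed the filter on low counts only through the targeted libraries, as did OVOL2, so a difference from controls at the floor came with that filter, and the calls of these 2 genes and the counts that hold them are given as a description. OVOL1 passed TREAT in set 1 (adjusted p = 0.00132) and in the mean of both sets (adjusted p = 0.00873, where 1.77% of all genes were called), and not in set 2 alone (adjusted p = 0.0564, moderated adjusted p = 0.00174). The call in the mean of both sets was lost when any 1 No gRNA library was left out, with adjusted p between 0.0854 and 0.0899.

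OVOL2 (ENSG00000125850, chromosome 20, 17956979 to 18059188, minus strand), which acts likewise, held 0, 0.102 and 0 CPM with No gRNA, 1.82, 3.27 and 3.55 in set 1 and 1.41, 1.7 and 7.02 in set 2. All 6 targeted libraries were above all controls, and set 2 replicate 3 stood well above the rest. The rise was at least 17.2-fold in set 1 and at least 20.2-fold in set 2, or at least 9.31-fold in set 2 without its replicate 3. It passed the moderated test (adjusted p = 0.00452 and 0.0033) and not TREAT (adjusted p = 0.107 and 0.0522), and without set 2 replicate 3 the set 2 comparison did pass TREAT (adjusted p = 0.0121).

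GRHL1 also rose, from 0.369, 1.58 and 1.5 CPM with No gRNA to 6.8, 3.42 and 4.5 in set 1 and 2.73, 2.74 and 4.94 in set 2. No targeted library overlapped a control. The means were 4.27 and 3.02 times the No gRNA mean, with a log2 fold change of 2.25 in set 1 (SE 0.519, moderated adjusted p = 0.00521) and 1.76 in set 2 (moderated adjusted p = 0.0163), neither past TREAT. KLF5 held 43, 44.5 and 44.3 CPM with No gRNA, 80.4, 90.9 and 78.8 in set 1 and 57.6, 76.5 and 81.2 in set 2. Its log2 fold change was 0.93 in set 1 (SE 0.125, moderated adjusted p = 1.44e-04) and 0.71 in set 2 (moderated adjusted p = 6.17e-04). For these 4 genes all 6 targeted libraries lay above all 3 No gRNA libraries, and for TP63 all 6 lay below, 5 of 8 members tested where 23.7% of all genes did not overlap. Of these 5, OVOL1, OVOL2 and TP63 passed the filter only through the groups where they are high.

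EHF and KLF4 moved in opposite directions in the 2 sets when set against No gRNA. EHF held 52, 60.6 and 64.8 CPM with No gRNA, 82.5, 85.2 and 89.9 in set 1 and 37.5, 34.6 and 28.9 in set 2. Set 1 lay wholly above the controls and set 2 wholly below them, with log2 fold changes of 0.55 (moderated adjusted p = 6.5e-04) and -0.79 (moderated adjusted p = 8.65e-05). KLF4 held 110, 104 and 102 CPM with No gRNA, 134, 140 and 146 in set 1 and 43.9, 41.7 and 45.6 in set 2. Its log2 fold change was 0.42 in set 1 (moderated adjusted p = 1.23e-04) and -1.25 in set 2 (SE 0.0691, moderated adjusted p = 5.63e-08). The fall in set 2 lay next to the TREAT threshold (adjusted p = 0.0533) and was called by edgeR glmTreat (adjusted p = 0.00578) and by DESeq2 with the same threshold (adjusted p = 0.0132). The direction of EHF depends on the control, since against wild type it was higher in both sets, with log2 fold changes of 1.72 in set 1 and 0.39 in set 2 (moderated adjusted p = 0.0322), while KLF4 was higher in set 1 (1.43) and lower in set 2 (-0.23, moderated adjusted p = 0.0356).

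Tested directly, set 1 exceeded set 2 in KLF4 (log2 fold change 1.66, SE 0.0676, TREAT adjusted p = 5.12e-05), 1 of 8 members tested where 3.07% of all genes were called. On the log2 scale EHF was higher in set 1 by 1.33 (SE 0.104) and OVOL1 by 2.15 (SE 0.455). Both passed the moderated test (adjusted p = 8.87e-07 and 0.00201), as did ELF3 at 0.83 (adjusted p = 0.0235), and none of these 3 passed TREAT. Without set 1 replicate 3, OVOL1 did (log2 fold change 2.49, adjusted p = 0.0406). The moderated test called 4 of 8 higher and 0 lower in set 1, where 26.3% of all genes were higher and 25.2% lower. Because the labels of these libraries conflict, this difference is between 2 sets of libraries and not between named guide conditions.

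ELF3 and TP63 did not pass either test in either set. ELF3 held 5.1, 4.38 and 7.76 CPM with No gRNA, 8.73, 6.38 and 5.47 in set 1 and 3.36, 3.28 and 4.74 in set 2, with log2 fold changes of 0.28 (moderated adjusted p = 0.411) and -0.56 (moderated adjusted p = 0.112). TP63 was near its detection limit, at 0.562 to 0.967 CPM with No gRNA and 0 to 0.53 over the targeted libraries, with log2 fold changes of -1.85 (moderated adjusted p = 0.159) and -2.72 (moderated adjusted p = 0.0612), and of -2.29 over both sets (moderated adjusted p = 0.0417). Wild type MDA-MB-231 cells averaged 0.29 CPM of TP63, set 1 0.234 and set 2 0.19, so the fall of TP63 depends on the control. GRHL3 failed the filter on low counts in this line. It stood at 0.686, 0.214 and 0.603 CPM with No gRNA, and at the floor in set 1 and set 2, at least 2.71-fold and 2.79-fold lower. Wild type was at the floor too, at a mean of 0.0176 CPM, so this fall was seen only against No gRNA. GRHL3 passed the filter only once No gRNA replicate 2, its lowest control library, was left out, so no test of it is given.

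In all, TREAT called 1 of 8 members tested in set 1, where 1.47% of all genes were called, and 0 of 8 in set 2, where 4.14% were. In set 2, 3 members had an unadjusted TREAT p under 0.05, DESeq2 called 2 and edgeR glmTreat 3. The moderated test called 6 of 8 higher and 0 lower in set 1, where 20.4% of all genes were higher and 17.3% lower. In set 2 it called 4 higher and 2 lower, where 27.3% were higher and 25.1% lower. Libraries did not overlap for 6 members higher and 1 lower in set 1, where 49% of all genes did not overlap, and for 4 higher and 3 lower in set 2, where 59.7% did not. Without OVOL1 and OVOL2, TREAT called 0 of 6 in either set, and the moderated test called 4 higher and 0 lower in set 1 and 2 higher and 2 lower in set 2.

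Of the 8 markers of other cell types, CD68 and PECAM1 were tested. CD68 was lower in set 2 (log2 fold change -1.34, TREAT adjusted p = 3.62e-04) and did not pass in set 1 (-0.09), and PECAM1 was lower in set 2 (-1.94, moderated adjusted p = 0.00317) and did not pass in set 1 (-0.64, moderated adjusted p = 0.171). In SUM159 the moderated test called both higher with All gRNA against No gRNA, CD68 by a log2 fold change of 0.39 and PECAM1 by 1.42, and neither with gRNA 4 (0.31 and 1.29). Both were also called higher in No gRNA than in wild type MDA-MB-231 cells, CD68 going from 105.9 ± 3.56 to 168 ± 6.07 CPM and PECAM1 from 0.928 ± 0.403 to 2.86 ± 0.551 (SD, n = 3). Their part in the results was not tested.

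**Figure D3:**
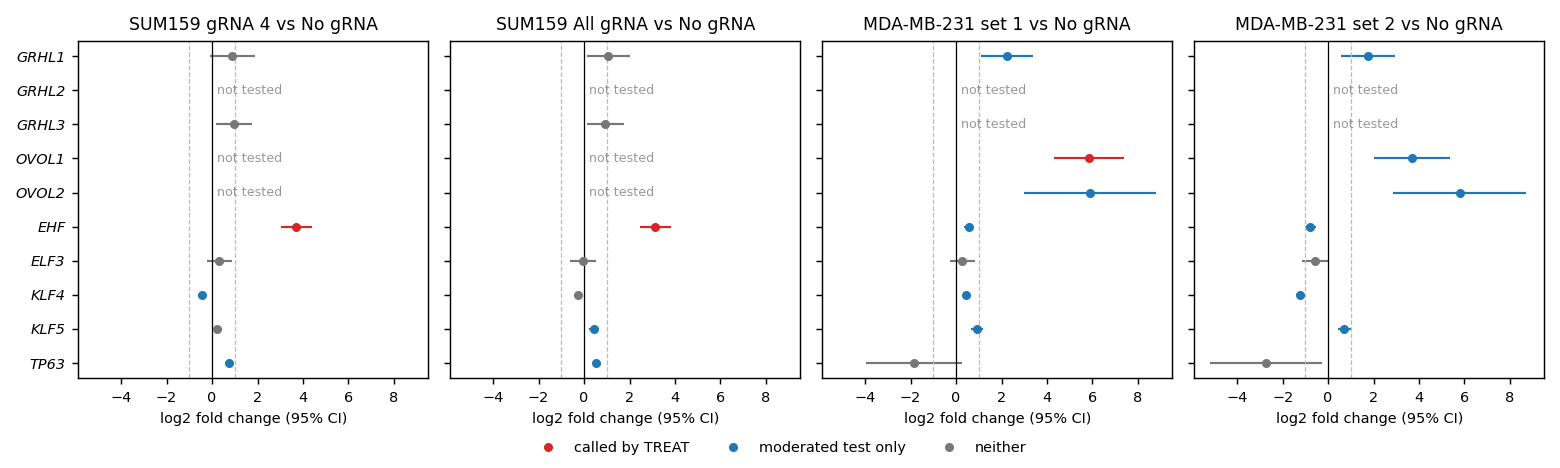
Log2 fold change against No gRNA for each transcription factor tested, in the 2 targeted SUM159 groups and the 2 MDA-MB-231 sets, with 95% intervals, dashed lines at the TREAT threshold of 1 in each direction and colours for the calls of each test. EHF stands at 3.70 and 3.14 in SUM159 and at 0.55 and -0.79 in MDA-MB-231, and the OVOL1 and OVOL2 values rest on controls at the floor.

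The difference between the lines was tested as an interaction, the change in the mean of the targeted groups in MDA-MB-231 less that in SUM159. By TREAT, 3 members passed, where 0.954% of all genes did. EHF changed less in MDA-MB-231 by -3.57 on the log2 scale (adjusted p = 5.89e-05), and OVOL1 changed more by a fitted 4.77 (adjusted p = 0.00731). GRHL3 went in opposite directions, leaning higher in SUM159 and lower in MDA-MB-231, with a fitted difference of -3.86 (adjusted p = 0.0296). The GRHL3 call was lost in 13 of 18 fits that left out 1 library (adjusted p between 0.051 and 0.156), and the fitted values of OVOL1 and GRHL3 are against groups at the floor and are no measured sizes. OVOL1 and OVOL2 passed the filter only through the targeted MDA-MB-231 libraries. By the moderated test OVOL2 (4.16, adjusted p = 0.0278), KLF5 (0.48, adjusted p = 0.022) and TP63 (-2.96, adjusted p = 0.00274) differed on the same scale as well, 6 in all where 25.4% of all genes did. The value of OVOL2 is likewise against groups at the floor, and that of TP63 rests on few counts in MDA-MB-231. As the 6 include these members, OVOL1 and GRHL3, their number is a description. As the lines were sequenced in separate runs, line and run cannot be told apart here.

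The vector without a guide went with changes of its own. In SUM159, No gRNA cells held less TP63 than wild type cells (121, 117 and 121 CPM against 251, 266 and 258), a log2 fold change of -1.12 (moderated adjusted p = 2.67e-08). On the same scale KLF5 was at -0.89 (moderated adjusted p = 2.23e-05) and KLF4 at -0.33 (moderated adjusted p = 0.00548). ELF3 went up, from 0.538, 0.673 and 0.927 CPM to 4.93, 4.57 and 3.81, a log2 fold change of 2.62 that lay next to the TREAT threshold (adjusted p = 0.0504, moderated adjusted p = 2.63e-04). ELF3 thus stood higher in every transduced SUM159 group than in wild type, guide or none. Against wild type it passed TREAT with gRNA 4 (log2 fold change 2.94, adjusted p = 0.01) and All gRNA (2.56, adjusted p = 0.0466). The first was lost without wild type replicate 1 (adjusted p = 0.0757) or 2 (adjusted p = 0.0639), and the second in 5 of 6 fits without 1 library (adjusted p between 0.0982 and 0.248). EHF did not pass (log2 fold change -0.12, moderated adjusted p = 0.832).

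TREAT called 0 of 7 members between No gRNA and wild type SUM159 cells, where 1.53% of all genes were called, and the moderated test called 1 higher and 3 lower, where 21% were higher and 21.9% lower. At an unadjusted TREAT p under 0.05 there were 2, and edgeR glmTreat and DESeq2 called 1 each. In MDA-MB-231 the moderated test called 4 of 8 higher in No gRNA than in wild type cells and 0 lower, where 26.2% of all genes were higher and 27.6% lower. These were EHF (from 23.8, 27.1 and 24.6 CPM to 52, 60.6 and 64.8, log2 fold change 1.17, moderated adjusted p = 4.99e-06), KLF4 (1.01, moderated adjusted p = 1.73e-07), ELF3 (1.33, moderated adjusted p = 0.00407) and KLF5 (0.55, moderated adjusted p = 0.00857). TREAT called 0 of 8, also at an unadjusted p under 0.05, by edgeR glmTreat and by DESeq2, where 3.6% of all genes were called.

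Between set 1 and wild type MDA-MB-231 cells TREAT called 5 of 8 members, or 3 of 6 without OVOL1 and OVOL2, where 8.42% of all genes were called. They were OVOL1 (at least 9.47-fold, adjusted p = 0.00125), OVOL2 (at least 16.6-fold, adjusted p = 0.0127), EHF (log2 fold change 1.72, adjusted p = 5.83e-04), KLF4 (1.43, adjusted p = 5.15e-04) and KLF5 (1.48, adjusted p = 0.0338). OVOL2 was lost without any 1 wild type library (adjusted p between 0.097 and 0.115), and KLF5 in 5 fits. Set 2 against wild type had 0 calls, where 1.44% of all genes were called, with OVOL2 nearest (adjusted p = 0.0628). There were 3 at an unadjusted p under 0.05, 1 by edgeR glmTreat and by DESeq2, and 1 once set 2 replicate 3 was left out.

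SUM159 wild type cells, which carry no vector, differed between the 2 runs in several of these factors. TP63 held 251, 266 and 258 CPM in run 1 and 37.1, 33.9 and 34.1 in run 2, a log2 fold change of -2.88 (SE 0.117, TREAT adjusted p = 3.54e-11). EHF held 1.14, 0.846 and 0.664 CPM in run 1 and 0, 0.0487 and 0.0622 in run 2, at least 4.65-fold lower (adjusted p = 0.00557, or 0.0576 without run 2 replicate 1). By the moderated test GRHL3 (log2 fold change -1.29, adjusted p = 0.00687), ELF3 (-2.05, adjusted p = 0.0127), KLF4 (-0.77) and KLF5 (-0.81) were lower too. TREAT called 2 of 9 members lower, where 2.79% of all genes were lower, and the moderated test 6, where 27% were. ZEB1 held 84, 75.8 and 79 CPM in run 1 and 79.7, 76.9 and 77.5 in run 2. The runs may differ in culture as well as in sequencing, and these cannot be told apart.

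Of the genes known to be activated by TP63, 15 were tested between the runs. TREAT called 9 lower in run 2 and 0 higher, where 2.79% of all genes were lower. Their median log2 fold change was -1.90, or -1.62 with genes at the floor set to their bound, where the median of all genes was 0.03. COL17A1, a hemidesmosome collagen, went from 229.3 ± 13.9 to 34.9 ± 2.53 CPM (SD, n = 3). SFN, an epithelial 14-3-3 protein, went from 62.8 ± 4.07 to 26.5 ± 1.23 CPM. Named after its values were seen, KRT5, the basal keratin, was at 1.19 ± 0.108 CPM in run 1 and at the floor in run 2, at least 6.27-fold lower. LAMB3, a laminin subunit of the basement membrane, fell by 1.05 on the log2 scale (moderated adjusted p = 1.63e-10) and did not pass TREAT. In No gRNA against wild type SUM159 cells these genes had mixed directions. The moderated test called 5 of 14 higher and 6 lower, where 21% of all genes were higher and 21.9% lower. The median log2 fold change was -0.35, where the median of all genes was 0.02. TREAT called 2 higher and 0 lower, where 1.53% of all genes were called in either direction. The 2 were COL17A1, from 229.3 ± 13.9 to 566.6 ± 15.3 CPM, and KRT5, from 1.19 ± 0.108 to 7.35 ± 0.24.

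**Figure D4:**
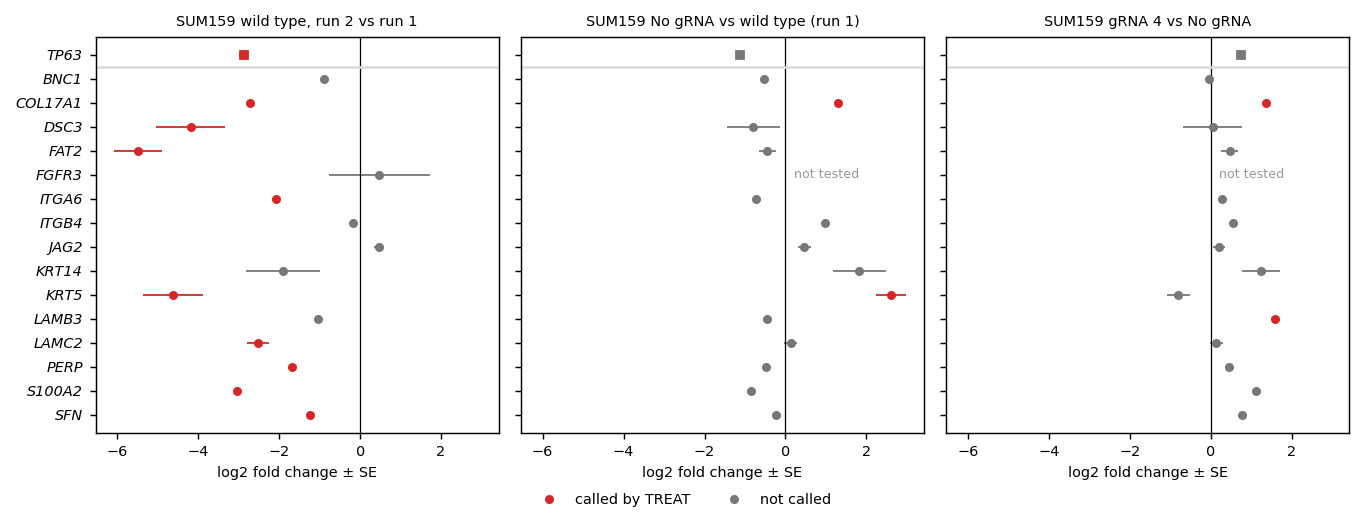
Log2 fold change of TP63 and of genes known to be activated by it, with SE, in SUM159 wild type of run 2 against run 1, in No gRNA against wild type and in gRNA 4 against No gRNA. TP63 stands at -2.88, -1.12 and 0.75, and 9 of 15 of the genes are called lower in run 2 (red), where the fitted values of KRT5, FAT2, DSC3 and KRT14 are against groups at the floor. Of all genes, 2.79% are called lower in run 2.

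Wild type cells of the lines could be compared within run 2. MDA-MB-231 held 23.8, 27.1 and 24.6 CPM of EHF and SUM159 at most 0.0622, at least 132.8-fold higher. ELF3 held 1.48, 2.58 and 2.43 CPM against 0.098, 0.11 and 0.249 (log2 fold change 3.63). TP63 was at 0 to 0.579 CPM in MDA-MB-231 (log2 fold change -7.57) and GRHL3 at the floor, at least 6.26-fold lower, and KLF5 was lower, at a log2 fold change of -1.36 (adjusted p = 0.022, or 0.138 without MDA-MB-231 replicate 1). TREAT called these 5 of 9, where 28.2% of all genes were called, with EHF and ELF3 higher in MDA-MB-231 and TP63, GRHL3 and KLF5 higher in SUM159.

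Ordered over all 9 groups, EHF had levels that did not overlap between most neighbours. The order ran from set 1, No gRNA, set 2 and wild type of MDA-MB-231 to gRNA 4 and All gRNA of SUM159, and SUM159 wild type of run 1 and No gRNA, which overlapped, stood above wild type of run 2. The most induced SUM159 group, gRNA 4 at 10.8 CPM, thus stayed below the lowest MDA-MB-231 group at 25.2. TP63 had the reverse order of lines, from SUM159 wild type of run 1 through gRNA 4, All gRNA, No gRNA and wild type of run 2, none overlapping its neighbour, down to the MDA-MB-231 groups, which overlapped each other. For KLF4, set 1, No gRNA of MDA-MB-231, SUM159 wild type of run 1 and SUM159 No gRNA stood apart at the top, and the lower 5 groups overlapped their neighbours. For ELF3 each of the 6 transduced groups overlapped a neighbouring transduced group, and their means stood above those of the 3 wild type groups. The lowest All gRNA library of SUM159, at 2.53 CPM, was under the highest wild type library of MDA-MB-231, at 2.58.

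Antisense genes overlap ELF3, GRHL3 and OVOL1, and whether the libraries keep strand is not stated. ELF3-AS1 averaged at most 0.392 CPM in any group, against 5.75 for ELF3 in the same group, and GRHL3-AS1 and OVOL1-AS1 were at the floor in all 9 groups.

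The lists of related genes are given next, and their counts by the moderated test can be set against the shares over all genes, 5.93% higher and 4.89% lower with All gRNA, 6.11% and 4.91% with gRNA 4, 20.4% and 17.3% in set 1 and 27.3% and 25.1% in set 2. By TREAT these shares were 0.396%, 0.39%, 1.47% and 4.14% in either direction. Of 18 epithelial genes known to be raised, directly or indirectly, by grainyhead-like and OVOL factors, 7 passed the filter in SUM159 and 15 in MDA-MB-231. OVOL1, OVOL2 and GRHL2 were at the floor in SUM159, and whether any of these factors raised the listed genes was not tested. TREAT called 4 of 7 higher with All gRNA and with gRNA 4, and 7 of 15 in each of set 1 and set 2, and none lower. Genes at or near the floor with No gRNA, such as EPCAM and SPINT1 in SUM159 and KDF1 in MDA-MB-231, could not pass the filter through those controls. For such genes a rise came with the filter, so the counts and medians of this list are given as a description. The median log2 fold change was 3.32 for All gRNA and 3.46 for gRNA 4, or 2.33 and 2.70 with genes at the floor set to their bound, and 1.85 in set 1 and 1.57 in set 2, where the median of all genes lay between -0.012 and 0.00013. SPINT1, an inhibitor of epithelial serine proteases, went from 0.276 ± 0.113 CPM with No gRNA to 15.1 ± 2.29 with gRNA 4 and 14.98 ± 2.57 with All gRNA (SD, n = 3), and from 15.8 ± 1.88 to 152.5 ± 8.52 in set 1 and 113.3 ± 4.8 in set 2. EPCAM, an epithelial adhesion molecule, went from 12.6 ± 1.68 to 290.0 ± 8.72 and 380.2 ± 4.37 CPM in set 1 and set 2, and from the floor to 0.868 ± 0.0546 and 1.12 ± 0.23 with All gRNA and gRNA 4 in SUM159. KDF1, a keratinocyte differentiation factor, was at the floor with No gRNA in MDA-MB-231 and at least 32.2-fold and 29.2-fold higher in set 1 and set 2, without passing the filter in SUM159. CDH1, E-cadherin, rose in set 1 from 0.495 ± 0.455 to 17.8 ± 7.03 CPM (TREAT adjusted p = 0.0232) and in set 2 to 3 ± 1.91 (moderated adjusted p = 0.0384).

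Of the genes known to be activated by TP63, the moderated test called 7 higher and 1 lower of 14 with All gRNA and 6 higher and 0 lower with gRNA 4, with 2 called higher by TREAT in each. These were COL17A1, from 566.6 ± 15.3 CPM with No gRNA to 1533 ± 30.9 with All gRNA and 1480 ± 27.3 with gRNA 4, and LAMB3, from 107.4 ± 7.62 to 412.9 ± 30.5 and 322.1 ± 22.4. In MDA-MB-231 the moderated test called 4 higher and 0 lower of 11 in set 1 and 4 higher and 2 lower in set 2. The median log2 fold changes were 0.19 and 0.34. TREAT called 3 of 11 higher in set 1 and 1 in set 2. Among them, SFN went from 31 ± 0.888 to 166.2 ± 6.62 CPM in set 1 and 207.2 ± 8.54 in set 2. LAMB3 rose in set 1 (log2 fold change 1.36, adjusted p = 5.7e-08) and not in set 2 (-0.06).

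Squamous and barrier genes known to be activated by KLF4, KLF5, ELF3, EHF or GRHL3 had mixed directions. With All gRNA and with gRNA 4 the moderated test called 4 of 5 tested higher and 1 lower, the latter CLDN1, a tight junction claudin, at log2 fold changes of -0.89 and -1.12. TREAT called none. In set 1 it called 2 of 8 higher, LCN2, a secreted lipocalin (log2 fold change 2.66), and CDKN1A, the cell cycle inhibitor p21 (1.68), and none lower, while the moderated test called 3 higher and 3 lower. In set 2 TREAT called none higher and CLDN1 lower (log2 fold change -1.62), and the moderated test called 1 higher and 4 lower. LCN2 stood at 191 ± 0.536 CPM in set 1, at 30.4 ± 2.28 with No gRNA and at 20.6 ± 0.819 in set 2.

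Among 18 other mammary epithelial transcription factors, TREAT called 1 higher and 1 lower of 14 with All gRNA and likewise with gRNA 4. It called 1 higher and 0 lower of 12 in set 1, and 3 higher and 1 lower in set 2. EMX2, a homeobox factor, fell in SUM159 by 2.20 with All gRNA and by 3.13 with gRNA 4 on the log2 scale. In set 2, MYB (log2 fold change 2.84) and FOXA1, a luminal pioneer factor (2.03), passed TREAT. Counts by the moderated test over the list were 1 higher and 1 lower of 14 with All gRNA, 2 and 2 with gRNA 4, 5 and 1 of 12 in set 1 and 4 and 4 in set 2, the last close to the share over all genes.

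Of 16 relatives of the members from the same families, TREAT called none in SUM159 or in set 1. In set 2 it called SPDEF, an ETS factor of luminal cells, higher (log2 fold change 1.36) and KLF9 (-2.03) and KLF10 (-1.32) lower. The moderated test called 0 higher and 2 lower of 12 relatives with All gRNA, 1 and 1 with gRNA 4, 6 and 1 of 14 in set 1 and 3 and 4 in set 2. Of the EMT factors, ZEB1 was called lower in all 4 comparisons, and SNAI2, a Snail-family repressor, was called higher in set 1, from 16.5 ± 0.838 to 94.4 ± 1.38 CPM (log2 fold change 2.52).

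**Figure D5:**
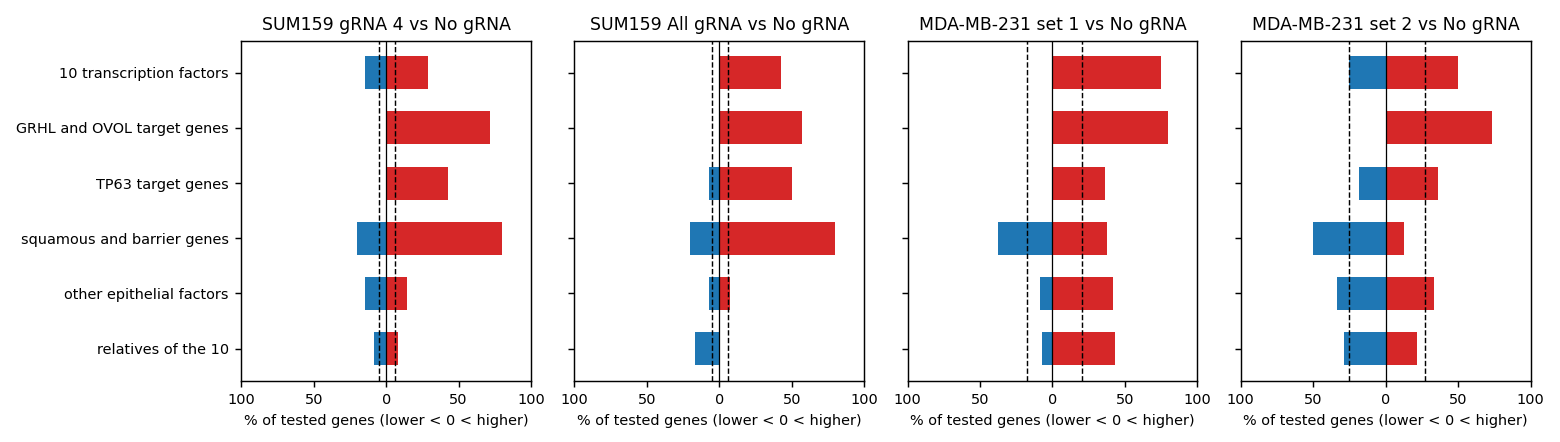
Share of tested genes of each list that the moderated test called higher or lower in each targeted comparison, in percent (higher to the right in red, lower to the left in blue), with the share over all genes tested as dashed lines. Epithelial genes listed for grainyhead-like and OVOL factors are 5 of 7 (gRNA 4), 4 of 7 (All gRNA), 12 of 15 (set 1) and 11 of 15 (set 2) higher, and none lower. Some of them have few or no counts in the controls, so their rise came with the filter on low counts.

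The genes whose log2 CPM followed EHF most closely over the 12 SUM159 libraries of run 1 were SLC35F3 (Pearson r = 0.987), ARG2 (0.979) and SQOR (0.974), out of 15147 genes. For OVOL1 over the 12 MDA-MB-231 libraries they were SLC25A22 (0.974), SGK3 (0.973) and PLP2 (0.971), out of 15721. These are descriptions over libraries that share groups and runs, and carry no test.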

How the data were processed

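The authors sequenced RNA as 50 bp single-end reads and deposited estimated counts per gene, made with Salmon and tximport with scaling for transcript length and no normalization between libraries. The submitters' notes name GRCh38. The Salmon version and strandedness are not given in the sources used here. All 27 libraries were used, with groups from the labels, and 56347 gene IDs were matched to symbols (GENCODE v44).

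The study's test was used: voom-limma with TREAT at a log2 fold change of 1 (R 4.3.3, limma 3.58.1, edgeR 4.0.16 for TMM scaling and filterByExpr with a minimum count of 10), over the 12 libraries of a line in run 1 (SUM159) or run 2 (MDA-MB-231), 24 for the interaction and 27 for comparisons of runs and of wild type lines. Adjusted p-values are Benjamini-Hochberg over all genes tested, two-sided, called under 0.05. Moderated p-values test the same fit against 0. Counts were unrounded in voom and rounded for edgeR's and DESeq2's (1.42.0) own tests. Exact permutation tests of single members are not printed, since 3 against 3 libraries cannot give p below 0.1. A gene with no library above 3 counts in a group was at the floor there, and folds against it are bounds. P-values measure the spread between libraries called clones, and intervals cover this spread only.

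The members and the gene lists were chosen with earlier results of these data known. The text names the 10 members, ZEB1 and at most 4 called genes of a list, by the size of their change over the 4 targeted comparisons, and the 3 genes most like each called member. Some listed genes that this rule would name are counted but not reported here. The fits were tested on simulated data. Alternatives were other tests, scalings, filters, weights, sets of libraries, controls, a replicate block and each library left out. Limited depth leaves genes under about 10 counts a library without a test.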

Additional observations from a re-analysis of the deposited data

Results flagged for a closer look

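For 3 transcription factors the change on ZEB1 targeting differed between the cell lines when that difference was itself tested by TREAT over 24 libraries. EHF changed less in MDA-MB-231 than in SUM159 by -3.57 on the log2 scale, with all 6 targeted SUM159 libraries above their 3 controls, and in MDA-MB-231 3 targeted libraries above and 3 below theirs. OVOL1 changed more in MDA-MB-231 by a fitted 4.77, which is no measured size, since it was at 0 counts in all 15 SUM159 libraries and all 3 No gRNA controls and passed the filter only through the targeted MDA-MB-231 libraries. GRHL3 went in opposite directions, leaning higher in SUM159 without passing a test and lower in MDA-MB-231, with a fitted difference of -3.86. Both targeted MDA-MB-231 sets were at the floor, as was wild type of that line. The call of GRHL3 was lost in 13 of 18 fits without 1 library. The lines were sequenced in different runs, so line and run cannot be told apart.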

How the results depend on the processing

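Calls and directions of the 10 transcription factors were recomputed under other tests, scalings, filters, weights, sets of libraries and controls, all planned. Of the values of single members, 1880 kept direction and call, 182 gained a call, 42 lost one and 49 changed direction, and 196 counts of called members stayed within 1.5 times the main count while 93 did not.

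Counts of called members are given in a fixed order, here and below, as a description and not as a result about the members. With the main filter 7 members were tested in SUM159, 8 in MDA-MB-231 and 9 between runs. In MDA-MB-231 they include OVOL1 and OVOL2, which passed the filter only through the targeted libraries. The moderated test called 10.8% of all genes with All gRNA, 11% with gRNA 4, 37.8% in set 1 and 52.4% in set 2. Shares under the other settings are not given. With TREAT at the log2 of 1.2 they were 2 for All gRNA and 2 for gRNA 4 against No gRNA, 3 for SUM159 No gRNA against wild type, 4 for All gRNA and 4 for gRNA 4 against wild type, 5 in set 1, 6 in set 2 and 5 over both sets against No gRNA, 3 for MDA-MB-231 No gRNA and 3 for set 2 against wild type, 3 for set 1 against set 2 and 6 for run 2 against run 1. In the same order, limma's moderated test against 0 gave 3, 3, 4, 6, 6, 6, 6, 6, 4, 5, 4 and 6, with 6 for the interaction, and edgeR's quasi-likelihood test against 0 gave 3, 3, 4, 6, 6, 6, 6, 5, 4, 5, 4 and 6. With the main fold threshold of 1, edgeR glmTreat and DESeq2 each called 1 for SUM159 No gRNA against wild type, 2 in set 1, 2 over both sets and 1 for set 2 against wild type, and glmTreat called 3 in set 2 and 2 for set 1 against set 2, DESeq2 2 in set 2. With no filter on low counts there was 1 for All gRNA against wild type, 2 in set 1, 3 in set 2, 2 over both sets, 1 for MDA-MB-231 No gRNA and 1 for set 2 against wild type. With only the libraries compared there were 0 for All gRNA against No gRNA, 1 for SUM159 No gRNA and 1 for All gRNA against wild type, 2 in set 1 and 1 in set 2. DESeq2 size factors, a minimum count of 3 and library totals each gave 1 in set 2, and library totals and quality weights each gave 1 for SUM159 No gRNA against wild type. With wild type as the control, counts were 2 for All gRNA, 2 for gRNA 4, 5 in set 1 and 2 over both sets.

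Leaving out 1 library gave counts of 1 to 2 for All gRNA and for gRNA 4 against wild type, 0 to 1 for All gRNA against No gRNA, for MDA-MB-231 No gRNA against wild type, for set 2 against wild type and for set 2 against No gRNA, 3 to 5 for set 1 against wild type, 0 to 2 over both sets and 1 to 2 for set 1 against set 2 and for run 2 against run 1. Log2 fold changes that crossed 0 were small or rested on few counts: without 1 library ELF3 ranged from -0.31 to 0.29 (All gRNA) and from -0.31 to 0.10 (both sets), EHF from -0.56 to 0.13 and GRHL1 from -0.000261 to 0.51 (SUM159 No gRNA against wild type), GRHL1 from -0.95 to 0.044 (MDA-MB-231 No gRNA against wild type), TP63 from -1.16 to 0.98 (set 1 against wild type) and from -2.03 to 0.11 (set 2 against wild type), OVOL2 from -0.30 to 0.80 (set 1 against set 2), and GRHL1 from -0.060 to 0.58 and GRHL3 from -0.19 to 0.19 (All gRNA against gRNA 4).

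By other tools, ELF3 with All gRNA turned to 0.0057 (edgeR), 0.0024 (DESeq2) and 0.062 (quality weights), GRHL3 between All gRNA and gRNA 4 to 0.0065 (edgeR) and 0.0012 (DESeq2), OVOL2 between the sets to -0.23 (edgeR) and -0.24 (DESeq2), and TP63 in set 1 against wild type to -0.45 (edgeR), -0.43 (DESeq2), -0.093 (quality weights) and, with the replicate block, -0.41. With wild type as the control, KLF5 turned to -0.46 (All gRNA) and -0.68 (gRNA 4), TP63 to -0.57 and -0.37, and ELF3 with All gRNA to 2.56. In MDA-MB-231 the same control turned TP63 in set 1 to 0.089, EHF and ELF3 in set 2 to 0.39 and 0.78, and EHF, ELF3 and KLF4 over both sets to 1.05, 1.19 and 0.60. KLF4 was lower in MDA-MB-231 wild type by -0.61 against SUM159 wild type of run 1. Where no construction of an alternative shows it, the cause was not tested.

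Replicate numbers do not pair the libraries: over 36 pairs of the same number the correlation of deviations ran from -0.083 to 0.058, with 0 over 0.1. The replicate block gave 2 calls in set 1, 2 in set 2, 2 over both sets and 1 for set 2 against wild type. Depth limits OVOL1, OVOL2, GRHL2 and, in MDA-MB-231, GRHL3 and TP63, whose controls hold few or no counts.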
